A study of Homo sapiens with 12 samples.

Results

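The choroid plexus genes described here are TTR, ENPP2, FOLR1, PRLR, CLIC6, AQP1, SLC4A5 and OTX2, a list of 8 markers of the choroid plexus epithelium, matched by symbol among the 63925 Ensembl gene IDs of each count file. They were followed in polyadenylated RNA of 12 neural cultures grown from embryonic stem cells. The groups were H9 cultures with dexamethasone, H9 cultures with vehicle, H1 cultures with dexamethasone and H1 cultures with vehicle, with 3 sister cultures in each. H9 and H1 are established lines of human embryonic stem cells. All cultures had been made by dual SMAD inhibition, a way of steering stem cells to a neural fate, over 10 weeks, and were kept in a neurobasal medium with B-27, ascorbic acid, cyclic AMP, BDNF and GDNF. The dexamethasone cultures then received this synthetic glucocorticoid at 1 µM and the vehicle cultures received DMSO, both for 6 h. The labels give no genotype beyond the line and no differentiation run or flow cell for a library, so line, run and any batch within them cannot be told apart.

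The choroid plexus is the folded epithelium of the brain ventricles that secretes cerebrospinal fluid. It forms at the dorsal midline from roof plate tissue next to the cortical hem, and its cells move sodium, chloride, bicarbonate and water into the ventricle and release carrier proteins into the fluid. The 8 genes code for secreted proteins (TTR, ENPP2), receptors (FOLR1, PRLR), channels and a transporter (CLIC6, AQP1, SLC4A5) and a transcription factor (OTX2). None of them is restricted to this tissue: TTR is also made in liver and retinal pigment epithelium, ENPP2 in oligodendrocytes, AQP1 in red blood cells and kidney, and OTX2 in developing forebrain, midbrain and retina.

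Total counts per library ran from 14751168 to 27505804. H9 vehicle culture 3 stood apart: it had the lowest total, and its mitochondrially encoded genes took 0.607% of the counts, where the other H9 libraries gave 4.80% to 5.64% and the H1 libraries 2.91% to 3.23%. Values of the 8 genes that it moves are also given without it, and so are the counts of those other lists that changed most. The exposure showed in FKBP5, a chaperone gene induced by the glucocorticoid receptor, which averaged 28.2 ± 2.3 CPM (counts per 1e+06 counts, with scaled library sizes) in H9 dexamethasone and 4.42 ± 0.57 CPM in H9 vehicle cultures, and 22.3 ± 3.1 CPM in H1 dexamethasone and 5.53 ± 0.57 CPM in H1 vehicle cultures (SD, n = 3 each).

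Of the 8 genes, 7 had counts in all 12 libraries and passed the filter on low counts. FOLR1 passed through its H9 libraries: 6 of 6 H9 libraries and 1 of 6 H1 libraries reached the minimum of 0.407 CPM that the filter asks of at least 3 libraries. CLIC6 reached it in 5 of 6 H9 and 3 of 6 H1 libraries, and the other 5 genes in all 12. Per kilobase of annotated exon, so that genes of different length can be set side by side, the mean level over the 12 libraries was 13.7 CPM per kb for TTR, 13.6 for OTX2, 2.54 for ENPP2, 1.81 for AQP1, 0.743 for FOLR1, 0.354 for PRLR and 0.215 for CLIC6. In bulk RNA such as this, fewer cells of a type and less RNA per cell cannot be told apart.

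**Figure D1:**
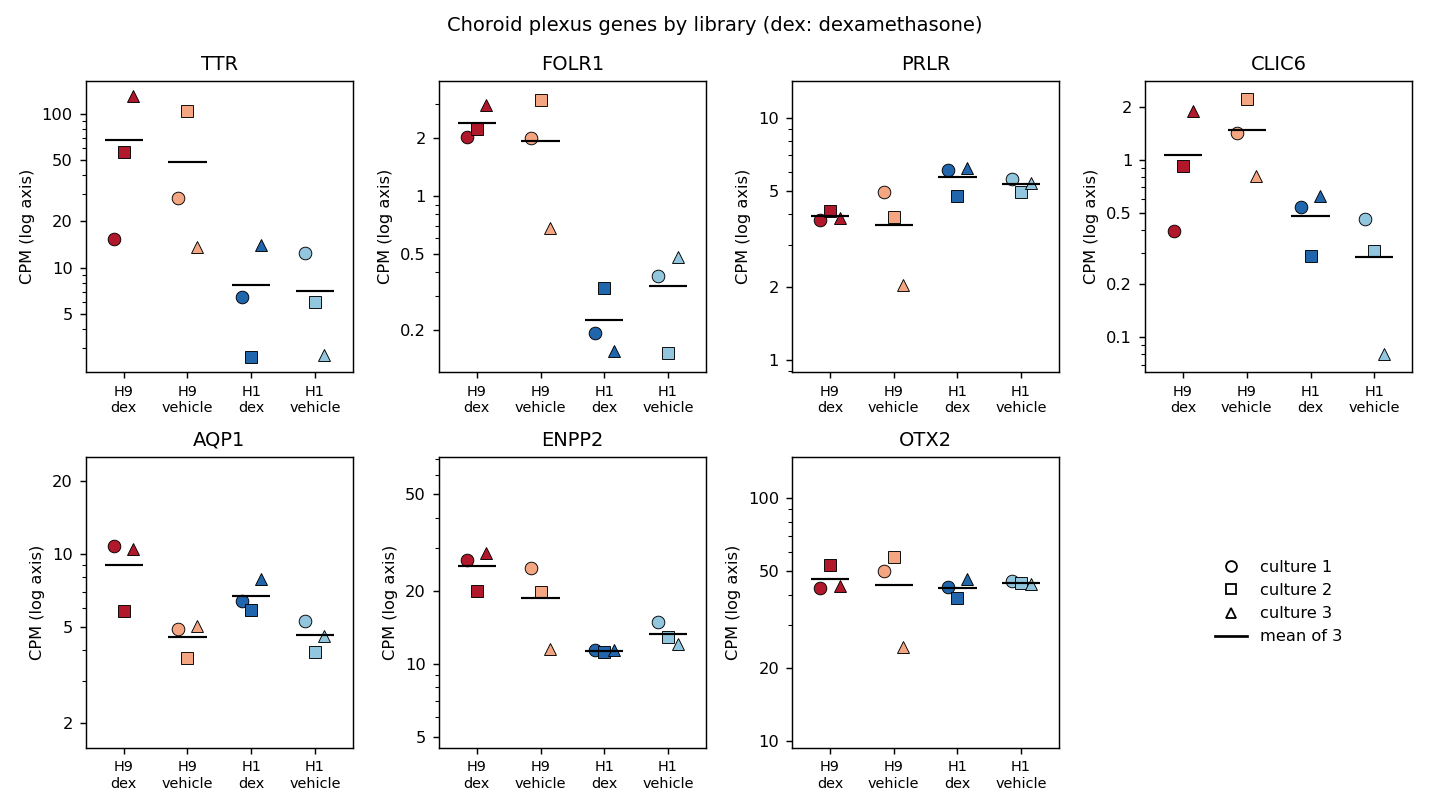
CPM of the 7 detected genes in each library on log axes, with 1 point per culture and a bar at the mean of 3; the panels span different ranges. TTR reached 130.2 CPM in 1 H9 dexamethasone culture and was lowest at 2.64 CPM in an H1 dexamethasone culture, FOLR1 was above 0.6 CPM in every H9 library and below 0.5 CPM in every H1 library, and OTX2 lay near 44.4 CPM in all groups apart from H9 vehicle culture 3.

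Among the secreted proteins, TTR (transthyretin, the carrier of thyroxine and, with RBP4, of retinol; ENSG00000118271.9, GRCh38 chromosome 18, 31557010 to 31599021, plus strand) was the gene that differed most between sister cultures. It was measured at 15.5, 56.9 and 130.2 CPM in the H9 dexamethasone cultures and at 28.3, 104.9 and 13.6 CPM in the H9 vehicle cultures. In H1 it was measured at 6.41, 2.64 and 14.1 CPM with dexamethasone and at 12.5, 6.00 and 2.72 CPM with vehicle. The lines thus did not overlap among the vehicle cultures or among the dexamethasone cultures, while the treatments overlapped broadly in both lines. Across treatments the lines met: the lowest H9 library, vehicle culture 3, lay just below the highest H1 library, dexamethasone culture 3.

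ENPP2 (autotaxin, the secreted enzyme that makes lysophosphatidic acid; ENSG00000136960.12, chromosome 8, 119557086 to 119673453, minus strand) varied far less. Its levels were 26.8, 20.0 and 28.6 CPM in H9 dexamethasone and 24.7, 19.7 and 11.5 CPM in H9 vehicle cultures. They were 11.4, 11.2 and 11.4 CPM in H1 dexamethasone and 14.9, 12.9 and 12.01 CPM in H1 vehicle cultures. Every H9 library except vehicle culture 3 lay above every H1 library.

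Of the receptors, FOLR1 (folate receptor alpha, which carries folate across the epithelium; ENSG00000110195.12, chromosome 11, 72189558 to 72196323, plus strand) had few counts, between 4 and 77 per library. It was found at 2.02, 2.21 and 2.96 CPM in H9 dexamethasone and at 1.99, 3.13 and 0.680 CPM in H9 vehicle cultures. In H1 it was found at 0.193, 0.330 and 0.156 CPM with dexamethasone and at 0.382, 0.153 and 0.481 CPM with vehicle. All 6 H9 libraries lay above all 6 H1 libraries.

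PRLR (the prolactin receptor; ENSG00000113494.16, chromosome 5, 35048756 to 35230589, minus strand) was the 1 gene with a lower mean in H9 than in H1 under both treatments. It stood at 3.80, 4.13 and 3.88 CPM in H9 dexamethasone and at 4.95, 3.89 and 2.04 CPM in H9 vehicle cultures, against 6.06, 4.75 and 6.21 CPM in H1 dexamethasone and 5.60, 4.93 and 5.41 CPM in H1 vehicle cultures. The dexamethasone cultures of the lines did not overlap, while among the vehicle cultures H9 culture 1 reached into the H1 range. PRL, the gene of its ligand prolactin, had 8 counts in the 12 libraries together.

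Of the channels, CLIC6 (a chloride intracellular channel protein; ENSG00000159212.12, chromosome 21, 34669389 to 34718227, plus strand) was the lowest detected gene, with 2 to 53 counts per library. It was measured at 0.395, 0.919 and 1.88 CPM in H9 dexamethasone and at 1.42, 2.21 and 0.816 CPM in H9 vehicle cultures, against 0.541, 0.289 and 0.625 CPM in H1 dexamethasone and 0.466, 0.306 and 0.0801 CPM in H1 vehicle cultures. The vehicle cultures of the lines were apart, and among the dexamethasone cultures H9 culture 1 fell within the H1 range.

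AQP1 (aquaporin 1, the water channel of the ventricular face of the choroid plexus; ENSG00000240583.11, chromosome 7, 30911694 to 30925516, plus strand) was the 1 gene whose dexamethasone cultures lay wholly above the vehicle cultures in both lines, as 0.763% of all tested genes did. It was measured at 10.8, 5.81 and 10.5 CPM in H9 dexamethasone and at 4.91, 3.72 and 5.03 CPM in H9 vehicle cultures. In H1 it was measured at 6.41, 5.86 and 7.89 CPM with dexamethasone and at 5.30, 3.94 and 4.61 CPM with vehicle. The treatments did not overlap in either line, whereas the lines overlapped within each treatment. Of its exon bases 26.5% are shared on the same strand with AC004691.2, which held only 190 counts in the 12 libraries against 1767 for AQP1. The last 30 bases before its annotated start in RefSeq (GRCh38.p14, chr7:30911823-30911852, plus strand) are shown because it was the gene whose treatments were apart, and capitals mark the TATA box letters.
AQP1 upstream: TATAAAtaggcccagcccaggctgtggctc
The letters TATAAA begin 30 bases before that start on the plus strand, and GENCODE 29 places the start of its first AQP1 exon 159 bases upstream of it, so this stretch lies within that exon there. In the 250 bases before the start they occur once, and 10.7% of 35116 RefSeq windows of that length hold these letters on either strand. The letters AGAACA, a core of the glucocorticoid receptor motif, are not in this window on either strand and are in 12.4% of all windows. The letters TAATCC, the core of the OTX2 motif, are also not in it and are in 5.62% of all windows. The window thus holds 1 match in all, and no motif overlaps another there. RefSeq windows were at hand for 4 of the 8 genes, and the AGAACA letters occur once before each of the 2 starts of OTX2 and once before 1 of 2 starts of PRLR and of SLC4A5.

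SLC4A5 (an electrogenic sodium bicarbonate cotransporter; ENSG00000188687.17, chromosome 2, 74216242 to 74343414, minus strand) was listed at 0 in all 12 libraries. A count of 0 in 284198098 allows up to 0.0106 CPM, for counting error only. Of its exon bases 64.0% are shared with other annotated genes, 47.5% on the same strand with AC006030.1, which had 2085 counts at 5.22 to 9.39 CPM, and a further part on the opposite strand with MTHFD2. How the counting treated reads that match both genes is not given in the sources used here, so a value of 0 for SLC4A5 does not show that its RNA was missing.

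OTX2 (a homeobox transcription factor needed for choroid plexus development in mice; ENSG00000165588.16, chromosome 14, 56799905 to 56810479, minus strand) showed similar levels in 11 of the 12 libraries. It was measured at 42.7, 53.1 and 43.5 CPM in H9 dexamethasone and at 50.2, 57.1 and 24.3 CPM in H9 vehicle cultures. In H1 it was measured at 42.9, 38.8 and 46.2 CPM with dexamethasone and at 45.4, 44.7 and 44.2 CPM with vehicle. Only H9 vehicle culture 3, the library with few mitochondrial counts, fell far outside the common range.

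Between the lines, TTR, FOLR1 and CLIC6 were higher in H9 than in H1 among the vehicle cultures, and TTR, FOLR1 and ENPP2 were higher in H9 among the dexamethasone cultures. These were 3 of 7 tested genes in each comparison, by edgeR's quasi-likelihood test with Benjamini-Hochberg adjustment over 17819 genes and a threshold of 0.05. The lines differed widely in general: 46.9% of all tested genes passed among the vehicle cultures and 43.6% among the dexamethasone cultures, so a share of 3 in 7 was near the background, and FOLR1 passed the filter only through its level in H9. The median log2 difference over all tested genes was 0.03 with vehicle and -0.02 with dexamethasone.

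Among the vehicle cultures TTR was higher in H9 by 2.80 ± 0.92 on the log2 scale (adjusted p = 0.0258 from edgeR), with averages of 48.9 ± 49.0 CPM in H9 and 7.09 ± 5.003 CPM in H1 (SD, n = 3 each). Among the dexamethasone cultures the difference was 3.13 ± 0.92 (adjusted p = 0.0165 from edgeR), with 67.5 ± 58.1 CPM in H9 and 7.73 ± 5.86 CPM in H1. Single libraries decided this call. With vehicle it was lost without H9 culture 2 (1.58, adjusted p = 0.146), without H1 culture 2 (2.69, adjusted p = 0.0828) and without H1 culture 3 (2.41, adjusted p = 0.0915), and with dexamethasone it was lost without H9 culture 3 (2.23, adjusted p = 0.0841), without H1 culture 1 (3.01, adjusted p = 0.0607) and without H1 culture 2 (2.72, adjusted p = 0.0642), all from edgeR.

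FOLR1, which passed the filter through its H9 libraries, where it was high, differed by 2.56 ± 0.51 on the log2 scale with vehicle (adjusted p = 0.00159 from edgeR) and 3.39 ± 0.54 with dexamethasone (adjusted p = 0.000316 from edgeR). With no filter on low counts the differences were 2.54 ± 0.44 and 3.40 ± 0.46, and both calls were kept under each of the 19 alternatives run. Without H9 vehicle culture 3 the vehicle differences were 2.91 ± 0.36 for FOLR1, 3.24 ± 0.74 for TTR and 2.67 ± 0.55 for CLIC6 (adjusted p = 4.03e-06, 0.00148 and 0.000618 from edgeR), in a fit that called 58.6% of genes with vehicle and 64.6% with dexamethasone. ENPP2 was 1.15 ± 0.23 higher in H9 with dexamethasone (adjusted p = 0.00155 from edgeR), again under all 19 alternatives, and 0.50 ± 0.23 with vehicle (adjusted p = 0.0894 from edgeR), which became 0.74 ± 0.14 without H9 vehicle culture 3 (adjusted p = 0.000321 from edgeR). CLIC6 was 2.42 ± 0.62 higher in H9 with vehicle (adjusted p = 0.00763 from edgeR), a call that held under all 19 alternatives. With dexamethasone its difference was 1.15 ± 0.58 (adjusted p = 0.130 from edgeR), and 1.17 ± 0.49 without H9 vehicle culture 3 (adjusted p = 0.0479 from edgeR).

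PRLR differed by -0.52 ± 0.24 on the log2 scale with vehicle (adjusted p = 0.0947 from edgeR) and by -0.53 ± 0.24 with dexamethasone (adjusted p = 0.0923 from edgeR), and neither passed. The dexamethasone difference of PRLR without H9 vehicle culture 3 was -0.53 ± 0.14 (adjusted p = 0.00454 from edgeR). Its vehicle difference was -0.26 ± 0.16 without H9 vehicle culture 3 (adjusted p = 0.170 from edgeR) and -0.82 ± 0.24 without H9 vehicle culture 1 (adjusted p = 0.0169 from edgeR, 49.2% of genes called). AQP1 differed by -0.02 ± 0.24 with vehicle and by 0.42 ± 0.23 with dexamethasone (adjusted p = 0.944 and 0.159 from edgeR), and without H9 dexamethasone culture 2 by 0.66 ± 0.19 with dexamethasone (adjusted p = 0.0191 from edgeR, 36.5% of genes called). OTX2 differed by -0.02 ± 0.23 with vehicle and by 0.12 ± 0.23 with dexamethasone (adjusted p = 0.940 and 0.700 from edgeR). The vehicle difference of OTX2 changed sign and passed without H9 vehicle culture 3, at 0.26 ± 0.10 (adjusted p = 0.0304 from edgeR), with averages of 53.6 CPM in 2 H9 and 44.7 CPM in 3 H1 cultures.

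Counted by libraries, TTR, FOLR1 and CLIC6 lay wholly above H1 in the H9 vehicle cultures, as 27.5% of all genes did. In the dexamethasone cultures TTR, FOLR1 and ENPP2 lay wholly above, as 33.7% of all genes did, and PRLR lay wholly below, as 34.5% did.

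**Figure D2:**
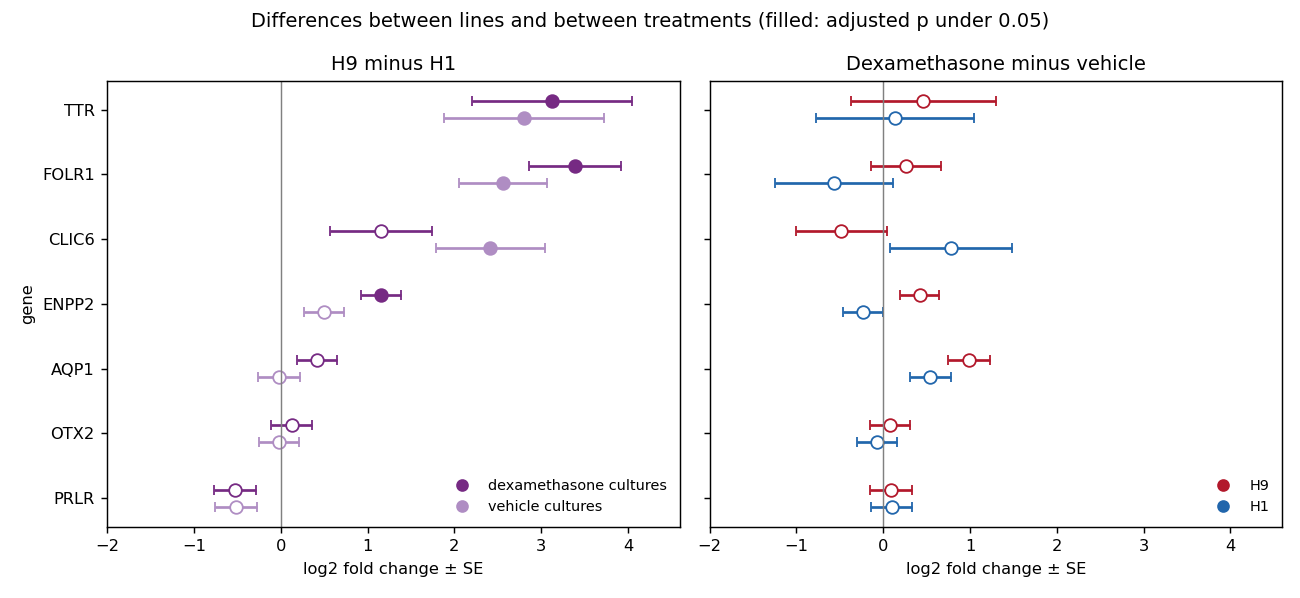
Log2 fold change ± SE of the 7 tested genes, H9 minus H1 on the left (dexamethasone and vehicle cultures) and dexamethasone minus vehicle on the right (H9 and H1), with filled points for an adjusted p under 0.05. FOLR1 and TTR stand more than 2 log2 units above 0 between the lines, and no gene passes between the treatments, where AQP1 is the gene farthest above 0 in H9.

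For dexamethasone against vehicle at 6 h, 0 of the 7 tested genes passed in H9 and 0 in H1 by edgeR, and few genes of any kind did: 0.0673% of all tested genes in H9 and 0.0505% in H1. The unadjusted p was under 0.05 for 2898 genes in H9 and for 526 in H1, and AQP1 was the 1 tested gene of the list among them in either line. AQP1 averaged 9.01 ± 2.78 CPM in H9 dexamethasone and 4.55 ± 0.73 CPM in H9 vehicle cultures, a difference of 0.99 ± 0.24 on the log2 scale (unadjusted p = 0.00135, adjusted p = 0.282 from edgeR). It averaged 6.72 ± 1.05 CPM in H1 dexamethasone and 4.61 ± 0.68 CPM in H1 vehicle cultures, a difference of 0.54 ± 0.24 (unadjusted p = 0.0397, adjusted p = 1 from edgeR).

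The AQP1 libraries did not overlap between treatments, which held for 9.76% of all genes upward in H9 and for 7.15% in H1. Averaged over both lines, a contrast added after the data were seen, the AQP1 difference was 0.77 ± 0.17 (adjusted p = 0.196 from edgeR), where 0.101% of genes passed. DESeq2 called 1 of the genes, AQP1, in H9 (1.01, adjusted p = 0.0156, 0.932% of genes called) and over both lines (0.78, adjusted p = 0.00419, 0.651% called). With edgeR the difference over both lines passed with no filter on low counts (0.80, adjusted p = 0.0243, 0.0905% called), without H9 vehicle culture 3 (0.80, adjusted p = 0.0248, 0.774% called) and without H9 dexamethasone culture 2 (0.89, adjusted p = 0.0452, 0.088% called). Over both lines AQP1 passed under 5 of 18 alternatives run, and in H9 under 2 of 19. The highest adjusted p among these alternatives was 0.603 over both lines and 0.596 in H9 (edgeR or DESeq2). Endothelial cells and astrocytes can also carry AQP1. The summed level of 10 endothelial markers was 19.4 to 22.4 CPM in H9 dexamethasone and 15.2 to 20.1 CPM in H9 vehicle cultures. It was 28.4 to 38.1 CPM in H1 dexamethasone and 25.1 to 30.9 CPM in H1 vehicle cultures. Of this sum KDR alone averaged 12.4 to 26.2 CPM by group, while CDH5 averaged 0.0571 to 0.2 CPM and PECAM1 0.0662 to 0.15 CPM. The summed level of 12 astrocyte markers was 2250 to 2800 CPM in H9 dexamethasone and 1690 to 2430 CPM in H9 vehicle cultures. In H1 it was 1060 to 1170 CPM with dexamethasone and 1120 to 1270 CPM with vehicle. The part of endothelial cells and astrocytes in the AQP1 values was not tested. In H1 alone AQP1 passed under none of the 19 alternatives, where its adjusted p was 0.117 to 1.

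The other 6 genes gave no call for dexamethasone under any alternative run. In H9 the differences, dexamethasone minus vehicle on the log2 scale, were 0.46 ± 0.84 for TTR, 0.42 ± 0.22 for ENPP2, 0.26 ± 0.41 for FOLR1, 0.09 ± 0.24 for PRLR, -0.48 ± 0.52 for CLIC6 and 0.08 ± 0.23 for OTX2. Without H9 vehicle culture 3, where 0.293% of genes were called in H9, they were 0.03 ± 0.65 for TTR, 0.18 ± 0.14 for ENPP2, -0.08 ± 0.27 for FOLR1, -0.17 ± 0.17 for PRLR, -0.71 ± 0.44 for CLIC6 and -0.21 ± 0.10 for OTX2, so that FOLR1, PRLR and OTX2 changed sign. In H1 they were 0.13 ± 0.91 for TTR, -0.23 ± 0.23 for ENPP2, -0.57 ± 0.68 for FOLR1, 0.10 ± 0.23 for PRLR, 0.78 ± 0.70 for CLIC6 and -0.07 ± 0.23 for OTX2. All 3 ENPP2 libraries of H1 lay lower with dexamethasone than with vehicle, as 6.98% of all genes did.

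Whether dexamethasone acted differently in the lines was tested by the difference of the effects, H9 minus H1, for which no gene of the 17819 passed in edgeR or in DESeq2 and 1329 had an unadjusted p under 0.05 in edgeR. AQP1 gave 0.45 ± 0.33 (adjusted p = 0.567 from edgeR), ENPP2 gave 0.65 ± 0.32 (adjusted p = 0.548 from edgeR) and CLIC6 gave -1.26 ± 0.88 (adjusted p = 0.558 from edgeR). The line differences of CLIC6 and ENPP2, each called under 1 treatment only, are therefore not shown to differ between treatments.

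The spread of TTR between sister cultures was itself unusual. Its SD within groups, pooled over the 4 groups, was 1.34 on the log2 CPM scale, and 5 of 17819 tested genes had a larger one. It was 1.30 without H9 vehicle culture 3, and no gene had a larger one. Of 5252 genes within a factor of 2 of its mean level, none varied more, and their median SD was 0.18. TTR had between 64 and 3392 counts per library, and its highest library was 49.3 times its lowest. CLIC6, at 0.80, and FOLR1, at 0.67, also varied more than most genes, of which 225 and 585 had a larger SD. With H9 vehicle culture 3 left out they were at 0.79 and 0.47, and 64 and 1095 genes had a larger SD. The SD of AQP1 was 0.31, of OTX2 0.35, of ENPP2 0.32 and of PRLR 0.34, and without H9 vehicle culture 3 it was 0.13 for OTX2, 0.19 for ENPP2 and 0.16 for PRLR.

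**Figure D3:**
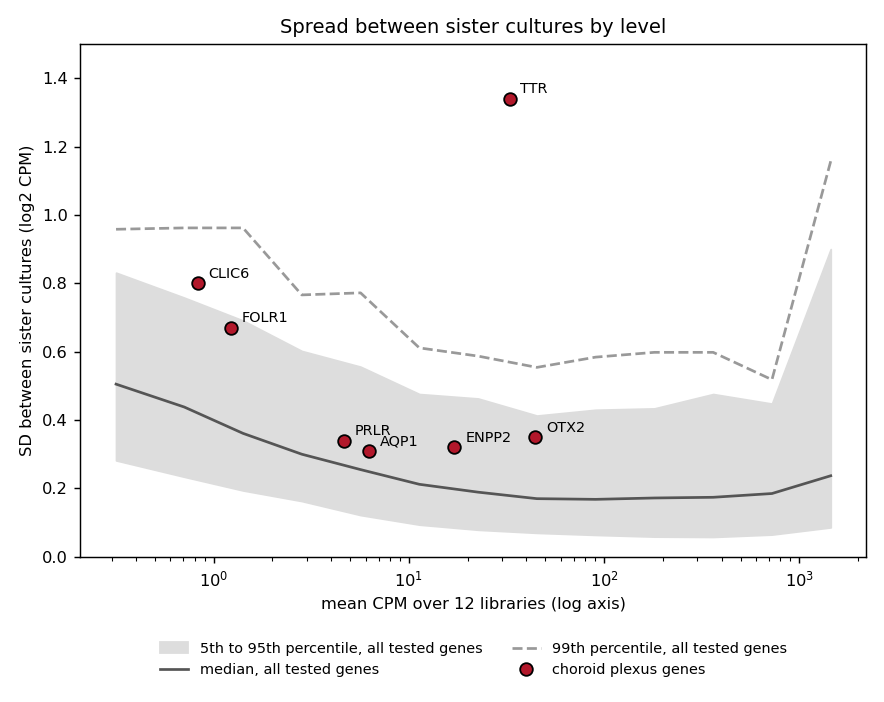
Pooled SD of log2 CPM between sister cultures against mean CPM on a log axis for the 7 detected genes (points), with the 5th to 95th percentile (band), the median (line) and the 99th percentile (dashed line) of all tested genes by level. TTR, at an SD of 1.34, lies far above the 99th percentile of genes at its level, which is 0.554.

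CLIC6 had the same order as TTR among sister cultures. Within each of the 4 groups the culture with the most TTR also had the most CLIC6 and the culture with the least TTR the least CLIC6, although in H9 dexamethasone culture 1 and H1 vehicle culture 3 the CLIC6 counts were only 8 and 2. After the group means were removed, the correlation of log2 CPM over the 12 libraries was 0.948. Within H9 it was r = 0.81 and rho = 0.83 (n = 6, two-sided exact permutation p = 0.0639 and 0.0583), and r = 0.82 without the 2 libraries farthest from the median of TTR. Within H1 it was r = 0.79 and rho = 0.89 (n = 6, two-sided exact permutation p = 0.05 and 0.0333), and r = 0.86 without the 2 farthest. Among 42 such relations between members, 2 lines for each pair, none passed adjustment (exact permutation, adjusted p = 0.592 for r and 0.408 for rho here). FOLR1 correlated with TTR at r = 0.79 and rho = 0.89 within H9 (n = 6, exact permutation p = 0.0111 and 0.0333, adjusted p = 0.467 and 0.408) and at r = -0.48 and rho = -0.31 within H1 (n = 6, exact permutation p = 0.317 and 0.564, adjusted p = 0.659 and 0.846), with r = 0.86 and r = -0.23 without the 2 farthest libraries.

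**Figure D4:**
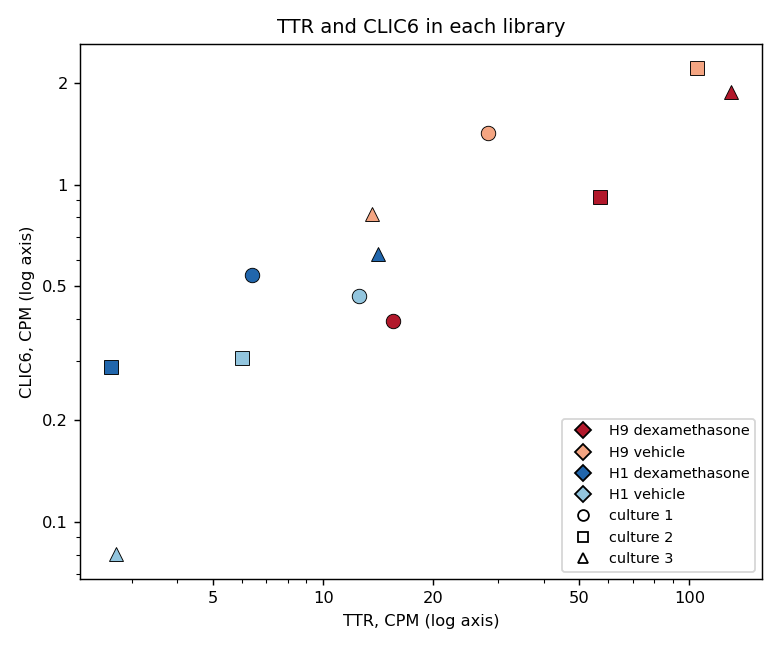
TTR against CLIC6 in each of the 12 libraries, in CPM on log axes, coloured by group and shaped by culture number. In every group the culture with the highest TTR has the highest CLIC6, for example 130.2 and 1.88 CPM in H9 dexamethasone culture 3 and 14.1 and 0.625 CPM in H1 dexamethasone culture 3.

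Other choroid plexus genes did not follow TTR as a body. Over 24 tested genes of a list of 32 further choroid plexus genes, the median correlation with TTR after removal of group means was 0.15, against 0.00 over all tested genes, and 2 of 24 (8.33%) exceeded 0.7, against 2.05% of all genes. With H9 vehicle culture 3 left out it was 1 of 24 (4.17%), against 5.54% of all genes, so the order of the shares turned round. The 2 were CA12, a carbonic anhydrase (0.72), and HTR2C, the serotonin 2C receptor (0.72), of which HTR2C stayed above 0.7 without H9 vehicle culture 3 (0.80) and CA12 did not (0.65). Of 10 retinal pigment epithelium genes 3 (30.0%) exceeded 0.7, namely SERPINF1 (0.76), PMEL (0.72) and MITF (0.71). The rest of that list were BEST1 (0.65), RPE65 (0.39), DCT (0.12), TYR (-0.17), RGR (-0.23), RLBP1 (-0.3) and LRAT (-0.44). Without H9 vehicle culture 3, SERPINF1, PMEL and MITF stood at 0.75, 0.69 and 0.74. The median over that list was 0.26 with and -0.09 without that library. The median over 20 roof plate and cortical hem genes was 0.54, and 0.55 without that library, and 2 of 20 exceeded 0.7, ZIC1 and ZIC4 (0.73 each). The median was -0.21 over 12 fibroblast genes. All genes of a library share its culture, RNA preparation and depth, so the correlations describe the libraries.

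By overall likeness, the 3 genes with the highest correlation of log2 CPM over the 12 libraries were named for each member, among 14092 genes with a mean of at least 1 CPM. For TTR these were NMB (0.954), PARP3 (0.935) and ASS1 (0.934). For FOLR1 they were LGI1 (0.983), FUCA2 (0.978) and WHAMMP1 (0.976), and for ENPP2 they were STX11 (0.977), NAMPT (0.976) and OGFRL1 (0.973). The AQP1 pattern was most like that of PIK3R1 (0.895), a regulatory subunit of phosphatidylinositol 3-kinase, followed by ADGRG1 (0.861) and RASSF4 (0.858). For OTX2 they were SMIM27 (0.960), COX10 (0.955) and SLC25A38 (0.953), and for PRLR they were DONSON (0.974), NUP153 (0.968) and PRKAB1 (0.967). CLIC6, at a mean of 0.829 CPM, was below the level asked for. The values over 12 libraries include the line differences and H9 vehicle culture 3. For the same pairs the correlation ran from 0.841 to 0.995 within H9, which includes that library. Within H1 it ran from 0.503 for OTX2 with COX10 to 0.964 for TTR with NMB.

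Among further choroid plexus genes, more were higher than lower in H9. Of the 24 tested, 11 were higher and 1 lower in H9 with dexamethasone, with a median log2 difference of 0.84, and 8 were higher and none lower with vehicle, with a median of 0.59. Over all genes 22.5% were higher and 21.2% lower with dexamethasone, with a median of -0.02, and 25.7% were higher and 21.2% lower with vehicle, so the 8 of 24 called with vehicle were a smaller share than the 46.9% of all genes. WFIKKN2, a secreted inhibitor of growth factors of the TGF-beta family, was higher in H9 by 4.26 ± 0.28 with dexamethasone and by 3.79 ± 0.27 with vehicle (adjusted p = 3.72e-07 and 8.99e-07 from edgeR). HTR2C was higher by 2.94 ± 0.43 with dexamethasone and by 3.06 ± 0.43 with vehicle (adjusted p = 0.000195 and 0.00014 from edgeR), and the zinc transporter gene SLC39A12 by 3.26 ± 0.50 and 3.07 ± 0.51 (adjusted p = 0.00025 and 0.000451 from edgeR). Without H9 vehicle culture 3 the counts were 16 higher and 3 lower with dexamethasone and 11 higher and 1 lower with vehicle, where 31.9% of all genes were higher and 32.8% lower with dexamethasone and 30.1% higher and 28.6% lower with vehicle.

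Of the 32 further choroid plexus genes, 8 were too low to be tested. KL, the gene of the hormone coreceptor klotho, averaged 0.161 and 0.0831 CPM in H9 dexamethasone and vehicle cultures and 0.0130 and 0.0408 CPM in H1 dexamethasone and vehicle cultures. The organic anion transporter gene SLC22A8 had 3 counts in the 12 libraries, SLC16A8 had 8, PON3 had 13, SLC5A5 and PRR32 had 28 each, TRPV4 had 38 and TMEM72 had 56. The labelled tissue is neural culture, and the presence of a choroid plexus epithelium in the cultures was not tested.

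Among genes for ion and water transport into cerebrospinal fluid, 8 of 16 were higher and 1 lower in H9 with dexamethasone. With vehicle 8 were higher and none lower. Without H9 vehicle culture 3, 11 were higher and 2 lower with dexamethasone and 11 higher and 1 lower with vehicle. Over all genes 22.5% were higher and 21.2% lower with dexamethasone, and 25.7% higher and 21.2% lower with vehicle. Without that library these shares were 31.9% and 32.8% with dexamethasone and 30.1% and 28.6% with vehicle. AQP4, the water channel of astrocyte end feet, was higher by 2.84 ± 0.44 with dexamethasone and 2.32 ± 0.43 with vehicle (adjusted p = 0.000255 and 0.000989 from edgeR), and ATP1B1, a subunit of the sodium pump, by 1.61 ± 0.14 and 1.17 ± 0.13 (adjusted p = 2.58e-06 and 2.88e-05 from edgeR). Of 12 epithelial junction genes, 8 were higher and none lower in H9 with dexamethasone, and 6 were higher and 1 lower with vehicle. They include CDH1 (E-cadherin), at 3.31 ± 0.57 with dexamethasone and 2.62 ± 0.56 with vehicle, and EPCAM, an epithelial adhesion molecule, at 2.71 ± 0.21 and 2.65 ± 0.21.

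Pathways around single members gave the following counts, to be read against 22.5% of all genes higher and 21.2% lower with dexamethasone and 25.7% higher and 21.2% lower with vehicle. Of 9 genes for the cargo of transthyretin, 6 were higher and 1 lower in H9 with dexamethasone and 7 higher and 1 lower with vehicle, with the thyroid hormone deiodinase DIO3 2.16 ± 0.19 higher and the retinol uptake receptor STRA6 differing by -2.76 ± 0.21 with vehicle. Of 14 genes for folate uptake and use, by contrast with FOLR1, 1 was higher and 6 were lower with dexamethasone and 3 were higher and 7 lower with vehicle. Of 13 genes around prolactin receptor signalling, 4 were higher and 1 lower with dexamethasone and 4 higher and 2 lower with vehicle, and CISH, a target and inhibitor of this signalling, differed by -1.97 ± 0.23 with vehicle. Of 12 genes around lysophosphatidic acid, 5 were higher and 1 lower with dexamethasone and 4 higher and 3 lower with vehicle. Of 7 partners and relatives of OTX2, 2 were higher and 2 lower under each treatment. The OTX2 counts were thus near those shares. With dexamethasone the prolactin receptor and lysophosphatidic acid lists, each of few genes, lay above the share higher and below the share lower. Without H9 vehicle culture 3, 6 prolactin receptor genes were higher and 4 lower with dexamethasone, and 5 higher and 4 lower with vehicle. Of the lysophosphatidic acid genes 6 were then higher and 3 lower with dexamethasone, and of the folate genes 1 was higher and 9 were lower. Of the OTX2 partners 3 were then higher with dexamethasone and 1 with vehicle. In that fit 31.9% of all genes were higher and 32.8% lower with dexamethasone, and 30.1% higher and 28.6% lower with vehicle.

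Within the families of the members, 3 of 4 tested aquaporins other than AQP1 were higher in H9 under both treatments, and none was lower. Of 7 tested genes of the SLC4 family, 4 were higher and 1 lower with dexamethasone and 5 higher and 1 lower with vehicle, SLC4A4, another sodium bicarbonate cotransporter, being 1.59 ± 0.12 higher with vehicle (adjusted p = 1.29e-06 from edgeR). All 4 tested ENPP genes other than ENPP2 were higher in H9 with dexamethasone, and 2 of 4 with vehicle, or 4 of 4 without H9 vehicle culture 3. Without that library 6 of the 7 SLC4 genes were higher with dexamethasone. Over all genes 31.9% were then higher with dexamethasone and 30.1% with vehicle, and 22.5% and 25.7% with that library kept. Of 3 tested CLIC genes, 1 was higher and 1 lower under each treatment, CLIC4 differing by -1.61 ± 0.20 with vehicle. CLIC1 and CLIC3 were listed at 0 in all 12 libraries, as were SOX2 and HES5, and TUBB3 averaged 0.327 to 0.692 CPM. The reason was not tested, so, as for SLC4A5, a low or 0 value of a listed gene does not show that its RNA was missing.

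Markers of other cell types moved with the line as well. Over all genes 22.5% were higher and 21.2% lower with dexamethasone, and 25.7% higher and 21.2% lower with vehicle. Of 20 roof plate and cortical hem genes, 10 were higher and 4 lower in H9 with dexamethasone and 12 higher and 4 lower with vehicle, LMX1A by 3.39 ± 0.37 with vehicle, while the summed level of the list overlapped at 643 to 843 CPM in H9 and 753 to 899 CPM in H1. Of 19 genes of ependymal and multiciliated cells, 13 were higher and 1 lower with dexamethasone and 14 higher and 1 lower with vehicle. The summed level of the 20 genes of that list in the files was 224 to 281 CPM in H9 and 145 to 161 CPM in H1. Of 10 tested genes of the retinal pigment epithelium, another source of TTR, 3 were higher and 4 lower with dexamethasone. With vehicle 1 was higher and 3 were lower. All 14 genes of that list summed to 45.1 to 110.0 CPM in H9 and 71.4 to 89.1 CPM in H1, of which RPE65 alone averaged 39.8 to 81.5 CPM by group. Only 4 of 16 liver and visceral endoderm genes were tested. Under each treatment 2 of these 4 were higher in H9 and none lower. All 16 summed to 9.66 to 15.0 CPM in H9 and 3.56 to 5.85 CPM in H1. Of this, FOXA1 alone averaged 8.89 CPM with dexamethasone and 7.84 CPM with vehicle in H9, and 1.35 and 0.989 CPM in H1. ALB, the gene of albumin, had lower means in H9, at 0.402 CPM with dexamethasone and 0.483 CPM with vehicle, against 0.58 and 0.672 CPM in H1.

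The summed level of 12 fibroblast markers was 639 to 813 CPM in H9 and 2850 to 5600 CPM in H1. Of the 12, 7 were lower in H9 under each treatment, while 2 were higher with dexamethasone and 1 with vehicle. The summed level of 12 neuron markers was 5690 to 6470 CPM in H9 and 3710 to 4220 CPM in H1, and 7 of 12 were higher under each treatment, with none lower with dexamethasone and 1 lower with vehicle. Of 11 tested astrocyte genes 7 were higher and none lower with dexamethasone and 5 higher and 1 lower with vehicle, where 7 were higher without H9 vehicle culture 3. Of 9 midbrain genes 5 were higher in H9 with dexamethasone and 8 with vehicle, or 6 and 6 without that library, none being lower. Over all genes 31.9% and 30.1% were higher without that library, and 22.5% and 25.7% with it, where 21.2% were lower under each treatment. Of 9 tested oligodendrocyte genes, whose cells also make ENPP2, 3 were higher and 1 lower under each treatment. All 15 genes of that list summed to 249 to 279 CPM in H9 and 238 to 257 CPM in H1, and SOX10 had 2 counts in all. Of 9 photoreceptor and eye field genes 2 were higher and 1 lower with dexamethasone and 2 higher and 2 lower with vehicle. Under each treatment 0 of 4 endothelial genes were higher and 2 lower, 1 of 11 progenitor genes was higher and 4 lower, and 1 of 3 pluripotency genes was higher and 2 lower. The part of these shifts in the line differences of TTR, FOLR1, CLIC6 and ENPP2 was not tested.

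For dexamethasone, no gene of the choroid plexus, transport, junction, pathway, family or cell type lists was called in H9 or in H1, where 3 of 4 and 2 of 4 known targets of the glucocorticoid receptor (FKBP5, TSC22D3, PER1, KLF9) were. The median log2 difference of the 24 further choroid plexus genes was -0.02 in H9 and -0.07 in H1, beside -0.02 and 0.00 over all genes. Without H9 vehicle culture 3, where 0.293% of genes were called in H9 and 0.326% in H1, all 4 known targets were called in each line. ALDH1L1, an enzyme of folate metabolism and an astrocyte marker, was then higher with dexamethasone by 1.06 ± 0.16 in H9 and 1.43 ± 0.22 in H1 (adjusted p = 0.00412 and 0.00802 from edgeR). In H1 the neurofilament gene NEFM was higher by 0.33 ± 0.07, and KCNJ13, a potassium channel gene of the choroid plexus list, CA2, a carbonic anhydrase gene, and S100B, an astrocyte marker, differed by -1.51 ± 0.25, -0.58 ± 0.06 and -0.41 ± 0.07 (adjusted p = 0.0477, 0.0116, 0.000178 and 0.0173 from edgeR). No other gene of these lists was called in either line.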

How the data were processed

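Per the labels' protocols, RNA was enriched with oligo-dT beads, and the libraries were pooled in equal amounts and sequenced on a NextSeq. Each deposited file holds raw counts per gene for 1 library, whole numbers that were not normalized. Builds GRCh38.p10 and hg38 and the tools STAR 2.5.3a and HTSeq are named by the submitters' processing notes. Annotation release and strand setting: not given in the sources used here. If counting ignored strand, reads of genes that overlap on opposite strands cannot be told apart. IDs were matched to symbols through the gene name table for 57532 IDs and GENCODE 29 for 507, which also gave positions. CPM per kb used the merged exons of a gene.

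The deposited counts were fitted in edgeR 4.0.16 (R 4.3.3) after filterByExpr, which kept 17819 genes, with TMM scaling and 1 mean per group over all 12 libraries (8 residual degrees of freedom). CPM are TMM-scaled. A standard error is the log2 fold change over the square root of F. Correlations used log2 CPM with a prior count of 2. The test was checked on simulated counts with changes in H9 dexamethasone only. Those counts held no line differences and no library set apart as H9 vehicle culture 3 was, so the check does not cover these. Alternatives were RLE scaling, DESeq2 1.42.0, no filter, CPM of at least 1 in 3 libraries, the compared groups alone, a term for culture number, and leaving out each library. Replicates are sister cultures per the labels' protocols, which do not say whether they came from separate differentiations, so p-values measure the spread between these samples, which may be technical. No pair of sister cultures agreed within sampling noise. Promoter windows came from RefSeq (GRCh38.p14). All 8 genes are named; from each of 26 further lists up to 3 called genes with the largest changes and a mean of at least 1 CPM are named, with markers near 0. The members, lists and comparisons were chosen with earlier results of these data known. CA12, ALB, the retinal pigment epithelium and roof plate genes followed with TTR, and the genes called for dexamethasone without H9 vehicle culture 3 were named after their values were seen.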

Additional observations from a re-analysis of the deposited data

How the results depend on the processing

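RLE scaling, the stricter filter and, for the line differences, DESeq2 changed no call of a member. Genes called and members called moved as follows. With the compared groups alone, 5284 genes passed for H9 minus H1 with vehicle (8350 in the main analysis) and 11002 with dexamethasone (7777). In that setting 2 genes passed for dexamethasone in H9 (12) and 50 in H1 (9). Members called for H9 minus H1 with dexamethasone were 5 (3), PRLR and CLIC6 being added. With DESeq2, 166 genes passed for dexamethasone in H9, 32 in H1 and 116 over both lines (18), and 1 member, AQP1, in H9 and over both lines. With no filter on low counts, 24 genes passed in H9 and 30 over both lines, with 1 member, AQP1, over both. The difference of dexamethasone effects gave 0 genes throughout.

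Leaving out 1 library gave 6711 to 10608 genes for H9 minus H1 with vehicle, 6106 to 11697 with dexamethasone, 6 to 53 for dexamethasone in H9, 3 to 59 in H1 and 10 to 140 over both lines; the members called were 2 to 5, 2 to 5, 0, 0 and 0 to 1. The vehicle difference of OTX2 ran from -0.261 without H9 vehicle culture 2 to 0.26 without H9 vehicle culture 3, where it was reversed and passed.

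Culture numbers were not shown to pair the samples. Same-numbered cultures of the 2 treatments correlated at -0.015, 0.113 and 0.012 in H9 and at 0.179, 0.1 and 0.05 in H1. In neither line did every culture correlate best with its own number. Between the lines the values were 0.078, 0.056 and 0.109 with dexamethasone, where each number was its own best partner. With vehicle they were -0.061, 0.102 and 0.006, where this did not hold for each number. With culture number as a replicate block, 8238, 7734, 9, 5 and 15 genes passed, and 2 members with vehicle and 3 with dexamethasone between lines, TTR being lost with vehicle (2.64, adjusted p = 0.0594 from edgeR). A fit with the replicate block and without H9 vehicle culture 3 was added after the data were seen. In it 10771 genes passed for H9 minus H1 with vehicle and 11908 with dexamethasone. For dexamethasone 62 passed in H9, 141 in H1 and 184 over both lines. Members called there were 5 between lines with vehicle (OTX2 at 0.26) and 6 with dexamethasone, and 1, AQP1, for dexamethasone in H9 and over both lines.

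Low counts limit FOLR1 and CLIC6, and 3 sister cultures per group limit TTR most. The labels give no differentiation run, so line and run cannot be told apart.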
